A study of Caenorhabditis elegans with 30 samples.

Results

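The equilibrative nucleoside transporter genes *ent-1* to *ent-7* of *Caenorhabditis elegans* were examined in RNAseq libraries of nematodes kept with or without thymidine analogues. Membership was set by gene name and used no measured value, although the family was picked for study with earlier results of these data known, and the 7 genes were looked up by their identifiers among the 46726 genes counted. All 7 passed the filter on low counts and were among the 16048 genes tested. Wild type N2 nematodes were moved at the L4 stage to plates with 100μM AZT, 100μM d4T, 100μM FLT, 0.033% DMSO as the solvent control, or no addition (unexposed). They were collected after 24h or 72h as whole worms, with 3 biological replicates in each of the 10 groups. Every group was fed OP50 *Escherichia coli*, and eggs and bacteria were sieved away before freezing.

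Equilibrative nucleoside transporters (ENT, family SLC29 in mammals) are membrane carriers that let nucleosides pass down their concentration gradient, in or out of the cell. Cells that salvage thymidine and other nucleosides take them up through such carriers, and in human cells several nucleoside analogue drugs enter the same way. The concentrative carriers of family SLC28, represented in the nematode by *slc-28.1* and *slc-28.2*, instead pull nucleosides in against their gradient with the help of an ion gradient. Of the nematode ENT proteins, ENT-1 and ENT-2 have been shown to carry nucleosides when expressed in frog oocytes. AZT, d4T and FLT are analogues of thymidine in which the sugar bears an azide, contains a double bond or bears a fluorine, respectively.

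In the WBcel235 genome, with the Ensembl gene models, *ent-1* (WBGene00001320) lies on chromosome IV from 11653417 to 11655470 on the minus strand. Chromosome IV also holds *ent-4* (WBGene00008123, 13726930 to 13732829, plus strand) and *ent-7* (WBGene00009686, 10017277 to 10021444, plus strand). The X chromosome holds *ent-2* (WBGene00010701, 15601067 to 15603686, plus strand) and *ent-5* (WBGene00017532, 4647526 to 4649197, minus strand). *Ent-3* (WBGene00010510) lies on chromosome V from 14232281 to 14236042 and *ent-6* (WBGene00009499) on chromosome I from 9246028 to 9249358, both on the minus strand. All 7 are protein-coding, with merged exons of 1376 bases (*ent-5*) to 2270 bases (*ent-3*). Whether reads were counted by strand is not given in the sources used here. This bears on *ent-7*, of which up to 180 exonic bases overlap F44D12.2 on the other strand, and little on *ent-1*, which shares 16 exonic bases with *ndub-6*. *Ent-4* also contains 31 piRNA loci, each of which shares at most 16 bases with its exons.

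Libraries held 11.3 to 30.6M counts on genes (median 24.0M). A difference was called at a Benjamini-Hochberg adjusted p under 0.01 over all genes tested, from edgeR's quasi-likelihood test in 1 fit of the 30 libraries. Whether the libraries of compared groups overlap is given as a description only, since its share over all genes was not counted. Levels are counts scaled to the library total (CPM) with TMM factors, and SE is the standard error of a log2 fold change. P-values weigh a difference against the spread between replicates, estimated over all 10 groups together rather than from the compared groups alone. Each exposure was run in a sequencing lane of its own, FLT on another flow cell, so that lane and exposure cannot be told apart at a given time. The 24h and 72h libraries of an exposure were in the same lane. Replicate 2 of d4T at 24h stood apart, with correlations of log2 CPM of 0.914 and 0.933 to its own group and 0.987 to a library of AZT at 24h. Values of d4T at 24h and correlations that rest on it are given without it as well. This library also entered the shared estimate of the spread. Comparisons between the other groups, also those of *ent-5* and *ent-6*, are not given without it. Over the libraries, marker genes summed to 1087 to 9545 CPM for oocytes and germline, 10941 to 123547 CPM for intestine, 126 to 807 CPM for body muscle and 213 to 349 CPM for neurons, with no gene of these lists at 0 in any library. The sums were 40.2 to 554 CPM for moulting larvae, 4.24 to 66.004 CPM for early embryos and 3.11 to 18.3 CPM for sperm. In these lists up to 2 of 8, 2 of 7 and 4 of 7 genes were at 0 in a library. In whole worms fewer cells of a type and less RNA per cell cannot be told apart.

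Per kilobase of merged exon the members spanned almost 3 orders of magnitude. *Ent-6* had a median of 90.7 CPM per kb over the 30 libraries and *ent-1* one of 77.1 CPM per kb. *Ent-2* followed at 31.7, *ent-5* at 12.7, *ent-7* at 10.6 and *ent-4* at 8.46 CPM per kb. *Ent-3* was close to absent, with a median of 0.0959 CPM per kb, 0 to 33 counts per library and 4 libraries at 0. A count of 0 allowed up to 0.0980 to 0.254 CPM in those 4 libraries (3 counts, counting error only). The ordering of *ent-5*, *ent-7* and *ent-4* differed between groups. *Ent-5* varied 8.34-fold between its highest and lowest group mean and *ent-6* 2.1-fold. Without replicate 2 of d4T at 24h these ranges were 10.2-fold and 3.43-fold, with d4T at 24h as the lowest group of both genes (3.87 CPM of *ent-5* and 51.9 CPM of *ent-6*).

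**Figure D1:**
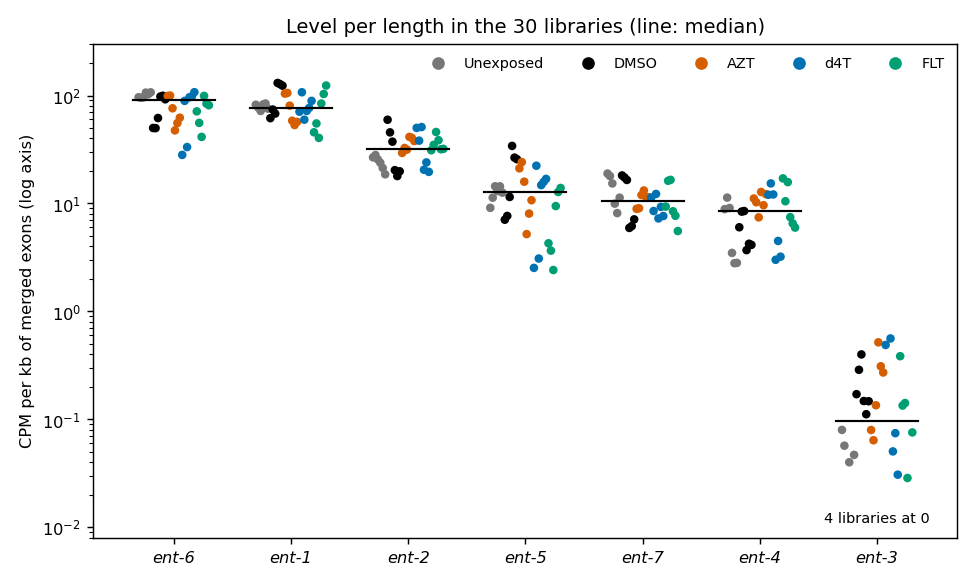
Level of each ent gene in CPM per kb of merged exons (log axis) in the 30 libraries, 1 point per library coloured by exposure, with the median as a line. *Ent-6* and *ent-1* had the highest medians (90.7 and 77.1) and *ent-3* the lowest (0.0959), with 4 libraries at 0 that are not drawn.

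The group means of *ent-1*, in CPM (mean ± SD, n = 3), were 207 ± 5.99 in DMSO at 72h, 169 ± 32.1 in FLT at 72h, 158 ± 22.9 in AZT at 24h, 132 ± 7.55 in unexposed nematodes at 72h and 129 ± 14.4 in d4T at 72h, followed by 129 ± 40.4 in d4T at 24h, 126 ± 8.303 in unexposed nematodes at 24h, 111 ± 10.1 in DMSO at 24h, 91.6 ± 4.32 in AZT at 72h and 76.7 ± 12.1 in FLT at 24h. Neighbours in this order overlapped in 8 of 9 cases, the exception being the step from DMSO at 24h to AZT at 72h. For *ent-2* the means were 81.8 ± 19.4 in DMSO at 24h, 79.9 ± 12.3 in d4T at 24h, 68.7 ± 3.14 in AZT at 72h, 64.2 ± 13.3 in FLT at 24h and 58.7 ± 6.57 in FLT at 72h, and then 53.7 ± 2.86 in AZT at 24h, 46.1 ± 2.21 in unexposed nematodes at 24h, 36.8 ± 3.99 in d4T at 72h, 36.6 ± 4.48 in unexposed nematodes at 72h and 33.4 ± 2.196 in DMSO at 72h. Only the steps from AZT at 24h to unexposed nematodes at 24h and from those to d4T at 72h separated neighbouring groups of *ent-2*. With all libraries the 2 members with shown transport activity thus had their highest means at opposite times of DMSO, *ent-1* at 72h and *ent-2* at 24h. For *ent-2* the libraries of DMSO and d4T at 24h overlapped. Without replicate 2 of d4T at 24h the d4T mean of *ent-2* was 87.04 CPM, above that of DMSO at 24h.

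*Ent-6*, the most abundant member per length, had means of 178 ± 3.76 in unexposed nematodes at 72h, 170.01 ± 9.88 in d4T at 72h, 163 ± 6.399 in DMSO at 72h, 162 ± 0.907 in unexposed nematodes at 24h, 155 ± 22.7 in AZT at 24h and 149 ± 16.3 in FLT at 72h CPM. Lower means were 94.9 ± 25.3 in FLT at 24h, 93.1 ± 12.5 in AZT at 72h, 91.1 ± 11.7 in DMSO at 24h and 84.8 ± 57.1 in d4T at 24h, and the step from FLT at 72h to FLT at 24h was the only one without overlap between neighbours. *Ent-5* had means of 39.7 ± 6.38 in DMSO at 72h, 28.11 ± 5.76 in AZT at 24h, 21.8 ± 1.44 in d4T at 72h, 18.4 ± 1.304 in unexposed nematodes at 72h and 16.6 ± 3.19 in FLT at 72h, and then of 15.99 ± 3.67 in unexposed nematodes at 24h, 12.8 ± 15.5 in d4T at 24h, 12.03 ± 3.299 in DMSO at 24h, 11.005 ± 3.797 in AZT at 72h and 4.75 ± 1.303 in FLT at 24h CPM. Neighbouring groups of *ent-5* were apart at 3 of 9 steps, DMSO at 72h over AZT at 24h, d4T at 72h over unexposed nematodes at 72h, and AZT at 72h over FLT at 24h.

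The means of *ent-4* were 24.8 ± 5.99 in FLT at 24h, 22.6 ± 3.23 in d4T at 24h, 19.8 ± 2.87 in AZT at 72h, 16.8 ± 2.35 in unexposed nematodes at 24h and 16.5 ± 3.31 in AZT at 24h, with 13.1 ± 2.42 in DMSO at 24h, 11.4 ± 1.29 in FLT at 72h, 6.91 ± 0.493 in DMSO at 72h, 6.14 ± 1.38 in d4T at 72h and 5.21 ± 0.674 in unexposed nematodes at 72h CPM below them. The step from FLT at 72h to DMSO at 72h separated the lowest 3 groups, all at 72h, from the rest. *Ent-7* had means of 32.5 ± 3.49 in unexposed nematodes at 24h, 32.5 ± 1.55 in DMSO at 24h, 26.3 ± 7.59 in FLT at 24h, 22.5 ± 1.903 in AZT at 72h and 19.998 ± 3.64 in d4T at 24h, and of 18.7 ± 3.23 in AZT at 24h, 18.3 ± 2.98 in unexposed nematodes at 72h, 15.1 ± 2.01 in d4T at 72h, 13.5 ± 2.82 in FLT at 72h and 11.99 ± 1.17 in DMSO at 72h CPM, without a gap between any neighbours. *Ent-3* counts were highest in AZT at 72h (33, 18 and 16 counts in replicates 1 to 3), in DMSO at 24h (7, 16 and 22) and in replicates 1 and 3 of d4T at 24h (22, 0 and 33 with replicate 2 in the middle). Unexposed nematodes held 4, 3 and 0 counts of *ent-3* at 24h and 3, 0 and 3 at 72h.

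**Figure D2:**
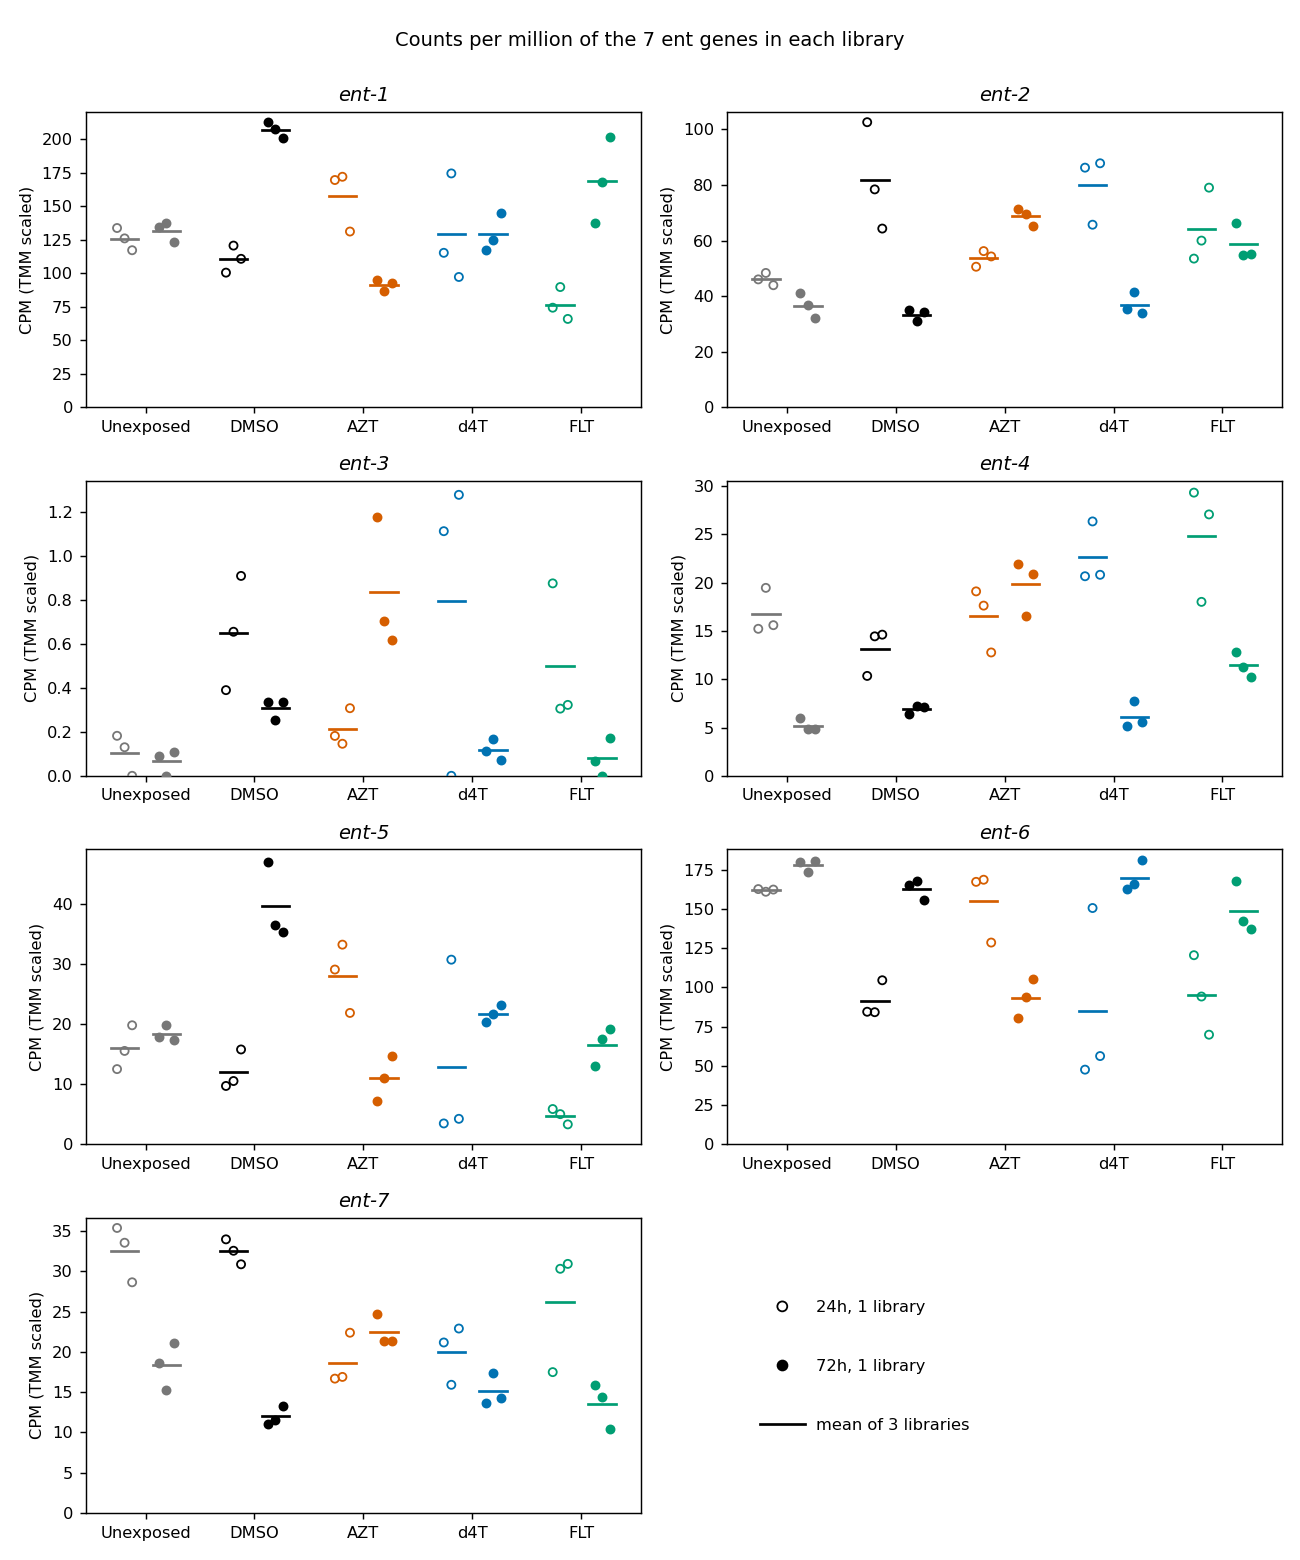
CPM of each ent gene (y axis from 0, TMM scaled) by exposure, with 24h as open and 72h as filled circles, 1 circle per library and a line at the mean of 3. With DMSO *ent-1* and *ent-5* were higher at 72h and *ent-2*, *ent-4* and *ent-7* lower, whereas with AZT *ent-1* was lower at 72h. The single high circle of *ent-5* and *ent-6* with d4T at 24h is replicate 2.

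The first question was how the transporters differed between each analogue and DMSO. With AZT at 72h 6 of 7 members were called, where 48.9% of all genes tested were called. *Ent-1*, *ent-5* and *ent-6* fell and *ent-2*, *ent-4* and *ent-7* rose. The median log2 fold change of the 7 members was 0.90, beside 0.36 over all genes, so that a member near 0.36 moved with the bulk of the transcriptome under this scaling.

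*Ent-1* measured 95.2, 86.8 and 92.8 CPM in replicates 1 to 3 of AZT at 72h and 213, 208 and 201 CPM with DMSO. It was 2.26-fold lower with AZT, with no overlap (log2 fold change -1.18, SE 0.18, adjusted p = 7.24e-06, edgeR's quasi-likelihood test). *Ent-2* went the other way, with 71.2, 69.7 and 65.2 CPM under AZT and 35.04, 30.9 and 34.2 CPM under DMSO, a 2.06-fold rise (log2 fold change 1.04, SE 0.16, adjusted p = 1.25e-05). The 2 carriers of known activity therefore moved apart, and each call held in the 6 fits that left out 1 library (log2 fold changes of -1.26 to -1.18 and 0.96 to 1.06).

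*Ent-4* showed the largest rise, from 6.35, 7.28 and 7.11 CPM with DMSO to 21.95, 16.5 and 20.9 CPM with AZT, 2.87-fold (log2 fold change 1.52, SE 0.21, adjusted p = 2.90e-06, edgeR). *Ent-7* rose from 11.1, 11.5 and 13.3 to 24.7, 21.4 and 21.4 CPM, 1.87-fold (log2 fold change 0.90, SE 0.20, adjusted p = 4.73e-04). All 3 AZT libraries lay above all 3 DMSO libraries for both genes, and both calls held without any single library.

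*Ent-5* had the largest fall, with 7.16, 11.1 and 14.8 CPM under AZT and 46.98, 36.6 and 35.4 CPM under DMSO, 3.604-fold lower (log2 fold change -1.85, SE 0.47, adjusted p = 0.00173, edgeR). Its lowest library was replicate 1 of AZT, and without it the log2 fold change was -1.64 and the call was lost (adjusted p = 0.0141). *Ent-6* measured 80.3, 93.8 and 105 CPM with AZT and 165, 168 and 156 CPM with DMSO (log2 fold change -0.81, SE 0.26, adjusted p = 0.009996). This call sat at the threshold. It was lost without any 1 of the 3 DMSO libraries and without replicate 1 or 2 of AZT, and kept without replicate 3 of AZT, over a range of -0.98 to -0.74 (adjusted p = 0.00966 to 0.0437).

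The remaining member, *ent-3*, had 1.18, 0.706 and 0.618 CPM with AZT and 0.336, 0.254 and 0.335 CPM with DMSO at 72h. The libraries did not overlap, but with 8, 6 and 9 counts in the control the difference was not called (log2 fold change 1.42, 95% interval -0.15 to 2.98, adjusted p = 0.107, edgeR). Measured against unexposed nematodes at 72h instead, *ent-3* was called (3.56, adjusted p = 0.00261), as were *ent-2* (0.91), *ent-4* (1.93) and *ent-6* (-0.94). In that comparison 5099 of the 16048 genes tested were called. *Ent-1* (-0.52, adjusted p = 0.0164), *ent-5* (-0.74, adjusted p = 0.185) and *ent-7* (0.29, adjusted p = 0.218) were not. The rise of *ent-2* and *ent-4* and the fall of *ent-6* were thus called against either control, while the differences of *ent-1*, *ent-5* and *ent-7* were called against DMSO only. The fall of *ent-6* against DMSO was not called with library totals in place of scaling factors (-0.50, adjusted p = 0.0699).

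Markers of other tissues moved in the same libraries. The summed level of 11 oocyte and germline genes was 2786 to 3394 CPM with AZT at 72h and 7757 to 8042 CPM with DMSO, and 9 of the 11 fell. The 8 intestine genes summed to 38999 to 55527 CPM with AZT and 10941 to 13999 CPM with DMSO, and 7 of the 8 rose. Of 8 moulting genes 6 rose, from a sum of 45.4 to 57.1 to 279.7 to 361 CPM, with *bli-1* at 0 in every library. All 4 body muscle genes rose, from 126 to 154 to 393 to 465 CPM in sum, as did 3 of 5 neuron genes (282 to 299.96 and 309 to 349 CPM) and 2 of 6 early embryo genes tested (30.9 to 34.9 and 31.5 to 40.98 CPM), while none of 5 sperm genes tested was called. Their part in the changes of the transporters was not tested. Replicate 1 of AZT at 72h also held 5.78% of its counts on rRNA genes, and leaving those genes out before scaling changed no call.

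At 24h AZT gave 2 calls among the 7 members, where 10.2% of all genes were called, and both were falls. *Ent-2* measured 50.6, 56.2 and 54.3 CPM with AZT and 103, 78.4 and 64.3 CPM with DMSO (log2 fold change -0.61, SE 0.16, adjusted p = 0.00965, edgeR). *Ent-7* measured 16.7, 16.9 and 22.4 CPM with AZT and 33.98, 32.6 and 30.9 CPM with DMSO (log2 fold change -0.80, SE 0.20, adjusted p = 0.00635). In both genes every AZT library lay below every DMSO library. Neither call was firm, since *ent-2* kept it only without replicate 3 of DMSO (range -0.72 to -0.40, adjusted p = 0.00317 to 0.116) and *ent-7* only without replicate 3 of AZT (range -0.92 to -0.69, adjusted p = 0.00671 to 0.0502), out of the 6 libraries left out in turn. Against unexposed nematodes *ent-2* had the opposite sign (0.22, adjusted p = 0.523) and *ent-7* the same value without a call (-0.80, adjusted p = 0.0272).

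The members that were lower with AZT at 72h lay above DMSO at 24h without passing the threshold. *Ent-1* measured 169.7, 172 and 131 CPM with AZT at 24h against 101, 121 and 111 CPM with DMSO (log2 fold change 0.51, SE 0.18, adjusted p = 0.0336, edgeR). *Ent-5* measured 29.1, 33.3 and 21.9 against 9.73, 10.6 and 15.8 CPM (log2 fold change 1.22, SE 0.47, adjusted p = 0.0538) and *ent-6* 167, 169 and 129 against 84.5, 84.2 and 105 CPM (log2 fold change 0.76, SE 0.26, adjusted p = 0.0336). All 3 genes had AZT libraries above the DMSO libraries, and *ent-5* and *ent-6* were called when these groups were fitted alone. That fit called 4275 genes in all, beside 1640 in the fit of all groups. *Ent-4* overlapped between the groups (0.32, interval -0.10 to 0.75), and *ent-3* stayed uncalled at -1.56 (interval -3.29 to 0.17). Here the 11 oocyte and germline genes summed to 6685 to 8402 CPM with AZT and 2879 to 4499 CPM with DMSO, with none of them called, and 6 of the 8 intestine and 3 of the 7 moulting genes tested fell. Their part in these values was not tested.

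**Figure D3:**
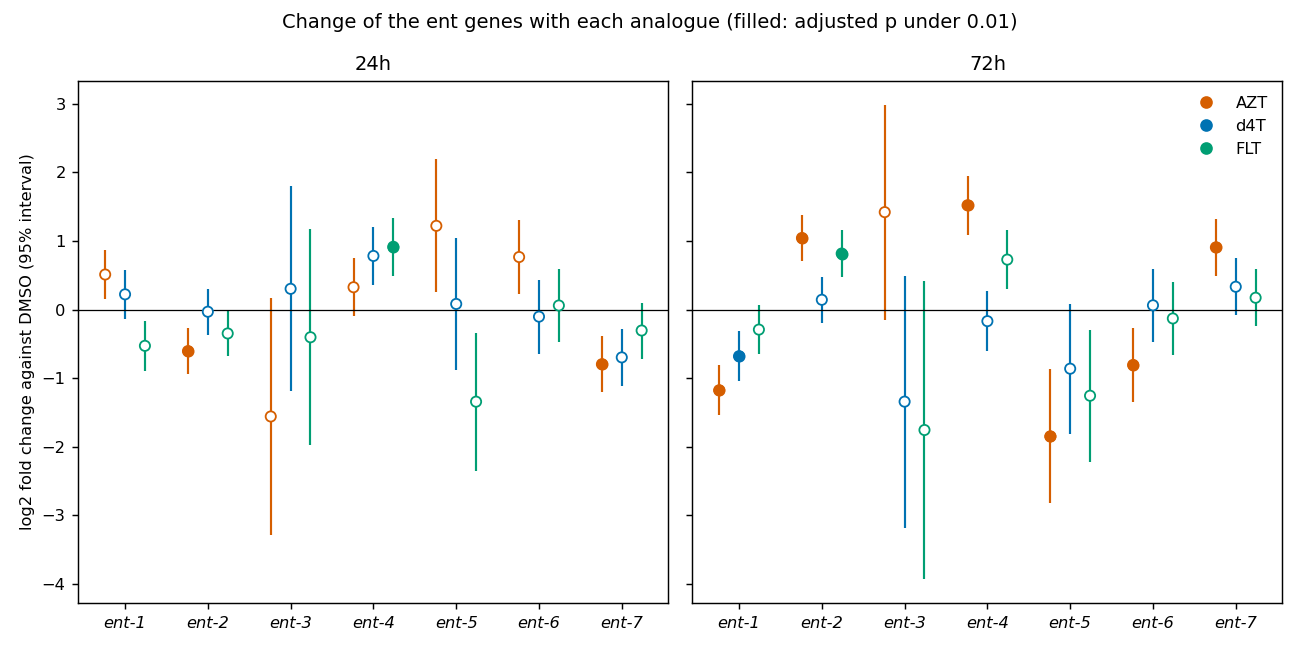
Log2 fold change of each ent gene with AZT, d4T and FLT against DMSO at 24h (left) and 72h (right), with 95% intervals from the fit and filled points for an adjusted p under 0.01. AZT at 72h has 6 filled points, AZT at 24h has 2, and the intervals of *ent-3* are the widest.

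Whether the response to AZT differed between the times was tested directly as the difference between both effects. It was called for 6 of 7 members, where 53% of all genes were called. From 24h to 72h the effect fell for *ent-1* (-1.69, adjusted p = 5.25e-06, edgeR), *ent-5* (-3.07, adjusted p = 3.34e-04) and *ent-6* (-1.57, adjusted p = 7.31e-04). It rose for *ent-2* (1.65, adjusted p = 2.99e-06), *ent-4* (1.19, adjusted p = 0.00103) and *ent-7* (1.70, adjusted p = 2.05e-05). Each of these 6 calls held without any single one of the 12 libraries involved, unlike the calls at 24h. The same test was called for 10 of 11 oocyte and germline genes (all lower), 8 of 8 intestine, 6 of 7 moulting, 4 of 4 muscle and 3 of 5 neuron genes (all higher). Of 6 early embryo genes 2 were called higher and 1 lower. Their part was not tested. Thus *ent-2* and *ent-7* lay below DMSO at 24h and above it at 72h, and *ent-1*, *ent-5* and *ent-6* the reverse. The difference between both effects also takes in the change within DMSO, and it was not tested against unexposed nematodes. In the fit of all groups *ent-2*, *ent-4*, *ent-5* and *ent-7* were called from 24h to 72h within DMSO but not within AZT. *Ent-1* was called within both and *ent-6* within neither.

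Between FLT and DMSO 1 member was called at each time. At 24h *ent-4* rose, with 29.3, 18.01 and 27.1 CPM against 10.3, 14.4 and 14.6 CPM in DMSO, where 15.1% of all genes were called (log2 fold change 0.91, SE 0.21, adjusted p = 0.00203, edgeR). The FLT libraries lay above all DMSO libraries. The call was lost without replicate 1 of DMSO and without replicate 1 or 3 of FLT (range 0.68 to 1.00, adjusted p up to 0.0332), against unexposed nematodes (0.56, adjusted p = 0.0262), and when only these groups were fitted. *Ent-5* was lower, at 5.89, 5.04 and 3.33 CPM against 9.73, 10.6 and 15.8 CPM, as was *ent-1*, at 74.3, 89.8 and 65.95 against 101, 121 and 111 CPM. Both were without overlap but not called (*ent-5* -1.34, adjusted p = 0.0421, and *ent-1* -0.53, adjusted p = 0.0262), and both were called against unexposed nematodes (*ent-5* -1.75 and *ent-1* -0.71). Of all genes 4725 were called against unexposed nematodes. Without replicate 2 of FLT *ent-1* was called against DMSO as well (-0.80, adjusted p = 0.00554). In these libraries the oocyte and germline genes summed to 1087 to 1961 CPM, below the 2879 to 4499 CPM of DMSO, with 4 of 11 called lower, and 2 of 4 muscle genes were called lower as well, and their part was not tested.

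At 72h *ent-2* rose with FLT, from 35.04, 30.9 and 34.2 CPM in DMSO to 66.3, 54.7 and 55.2 CPM (log2 fold change 0.82, SE 0.16, adjusted p = 0.001097, edgeR), where 8.06% of all genes were called. All 3 FLT libraries were above all 3 of DMSO. The call held against unexposed nematodes (0.68, adjusted p = 0.00334) and was lost only without replicate 2 of DMSO, by a narrow margin (0.76, adjusted p = 0.01002). *Ent-4* was also higher, 12.8, 11.2 and 10.3 CPM against 6.35, 7.28 and 7.11 CPM, without passing the threshold (log2 fold change 0.73, SE 0.21, adjusted p = 0.0186), and passed it against unexposed nematodes (1.13, adjusted p = 3.20e-04). Of all genes 2002 were called against unexposed nematodes. *Ent-5* measured 13.03, 17.6 and 19.2 CPM with FLT, below the DMSO libraries, with a log2 fold change of -1.26 that was not called (adjusted p = 0.0671). *Ent-1* (-0.29), *ent-6* (-0.13) and *ent-7* (0.17) overlapped with DMSO, and *ent-3* held only 1, 0 and 3 counts. The effect of FLT on *ent-2* differed between the times (1.16, adjusted p = 8.76e-04, edgeR), the only call among the 7 members, where 9.73% of all genes were called, and it held without any 1 of the 12 libraries. With FLT at 72h 3 of 4 muscle genes (269.7 to 408 CPM in sum against 126 to 154 CPM in DMSO) and 1 gene each of the intestine, moulting and sperm lists were called higher than in DMSO. Of 6 early embryo genes 3 were called lower (4.88 to 7.49 against 30.9 to 34.9 CPM), as was 1 of 5 neuron genes. Their part was not tested.

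With d4T at 24h 0 of 7 members were called by edgeR, where 6.31% of all genes were, and 2 members had an unadjusted p under 0.05. These were *ent-4*, with 20.7, 26.3 and 20.8 CPM over 10.3, 14.4 and 14.6 CPM in DMSO (log2 fold change 0.78, SE 0.21, adjusted p = 0.01195), and *ent-7*, with 21.2, 15.9 and 22.9 CPM under 33.98, 32.6 and 30.9 CPM (log2 fold change -0.70, SE 0.20, adjusted p = 0.0199). Neither overlapped with DMSO, and DESeq2 called both, among 1575 genes in all. Replicate 2 decided the values of *ent-5* and *ent-6*. *Ent-5* measured 3.49, 30.8 and 4.26 CPM and *ent-6* 47.6, 151 and 56.3 CPM, with replicate 2 several times above the other libraries of the group. With it *ent-5* had a log2 fold change of 0.08 and *ent-6* one of -0.10. Without it *ent-5* was lower than in DMSO (-1.66, adjusted p = 8.35e-05, edgeR) and so was *ent-6* (-0.84, adjusted p = 3.45e-04), in a fit that called 6032 genes in all. The oocyte and germline genes summed to 2382 to 9545 CPM over these libraries, the upper end in replicate 2, which also had 0 counts of *ent-3* where replicates 1 and 3 had 1.11 and 1.28 CPM, among the 3 highest levels of the series. The moulting genes summed to 70.6 CPM in replicate 2 and 509.8 and 492 CPM in replicates 1 and 3, and the intestine genes to 47586 CPM and 123547 and 87771 CPM. Replicate 1 held 4.99% of its counts on rRNA genes. Against DMSO 1 of 4 muscle genes was called higher and 1 of 6 early embryo genes lower. The part of these markers was not tested.

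At 72h *ent-1* was lower with d4T, with 117, 125 and 145 CPM against 213, 208 and 201 CPM in DMSO (log2 fold change -0.68, SE 0.18, adjusted p = 0.00654, edgeR). It was the only call of 7 where 11.7% of all genes were called. The groups did not overlap. The call was lost without any 1 of the DMSO libraries and without replicate 1 or 2 of d4T (range -0.82 to -0.62, adjusted p = 0.00938 to 0.0359), with library totals in place of scaling factors, and against unexposed nematodes, where the log2 fold change was -0.03 (adjusted p = 0.965). *Ent-2* (0.14, interval -0.19 to 0.48), *ent-4* (-0.17, interval -0.60 to 0.26) and *ent-6* (0.06, interval -0.47 to 0.60) overlapped with DMSO. *Ent-5* lay lower (20.4, 21.8 and 23.3 CPM, -0.86, adjusted p = 0.163) and *ent-7* higher (13.6, 17.4 and 14.3 CPM, 0.33, adjusted p = 0.221), neither called. No member passed the test of the difference between both effects of d4T, where 8.01% of all genes did. The nearest were *ent-1* (-0.90, adjusted p = 0.0131) and *ent-7* (1.03, adjusted p = 0.0132), and 3 members had an unadjusted p under 0.05, *ent-1*, *ent-4* and *ent-7*, all of which DESeq2 called, among 1928 genes in all. Without replicate 2 of d4T at 24h *ent-6* passed that test (0.85, adjusted p = 0.00568). Markers called with d4T at 72h were 3 of 7 moulting genes (111 to 161 CPM in sum against 45.4 to 57.1 CPM in DMSO), 2 of 4 muscle and 2 of 6 early embryo genes, all higher, and 1 of 11 oocyte and germline genes, lower. Their part was not tested.

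The solvent itself was compared with no addition. At 24h *ent-2* was higher with DMSO, 103, 78.4 and 64.3 CPM against 46.03, 48.4 and 43.9 CPM, where 12.6% of all genes were called (log2 fold change 0.83, SE 0.16, adjusted p = 7.60e-04, edgeR). This call for 1 of 7 members held without any single library (0.67 to 0.97). *Ent-6* was lower, 84.5, 84.2 and 105 CPM against 163, 161 and 162 CPM, and fell short of the threshold (log2 fold change -0.83, SE 0.26, adjusted p = 0.0211). For *ent-3* DMSO had 7, 16 and 22 counts where unexposed nematodes had 4, 3 and 0, a difference that was not called (adjusted p = 0.03197). Thus *ent-2* was the 1 member called between the controls at 24h in the fit of all groups. The libraries of *ent-6* did not overlap either. A fit of these groups alone called more than 1 member, among 4241 genes in all. Moulting genes summed to 203 to 372 CPM with DMSO and 40.2 to 78.98 CPM without, with 5 of 7 tested called higher. Intestine genes summed to 65954 to 90996 and 34185 to 42475 CPM, with 6 of 8 called higher, and 1 of 6 early embryo genes was called lower. Their part was not tested.

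At 72h *ent-1* was higher with DMSO, 213, 208 and 201 CPM against 135, 137 and 123 CPM (log2 fold change 0.65, SE 0.18, adjusted p = 0.00855, edgeR), 1 of 7 members where 11.7% of all genes were called. The groups were apart, but the call did not hold in any of the 6 fits without 1 library (0.62 to 0.71, adjusted p = 0.0214 to 0.0458). *Ent-5* had 46.98, 36.6 and 35.4 CPM with DMSO over 17.9, 19.8 and 17.4 CPM (log2 fold change 1.11, SE 0.46, adjusted p = 0.0896) and *ent-7* 11.1, 11.5 and 13.3 CPM under 18.6, 15.2 and 21.2 CPM (log2 fold change -0.61, SE 0.20, adjusted p = 0.0298). Neither was called in the fit of all groups, and both were in a fit of these groups alone, which called 5973 genes in all. *Ent-1*, *ent-5* and *ent-7* are the members whose difference with AZT at 72h was called against DMSO and not against unexposed nematodes. The effect of DMSO on *ent-2* differed between 72h and 24h (-0.96, adjusted p = 0.00262, edgeR), 1 of 7 where 19.4% of all genes were called, and this was lost without replicate 1 of unexposed nematodes at 72h (-0.86, adjusted p = 0.01105) or replicate 1 of DMSO at 24h (-0.78, adjusted p = 0.0133). At 72h 3 of 8 intestine and 3 of 4 muscle genes were called lower with DMSO than without, and 1 gene each of the oocyte and sperm lists higher, and their part was not tested.

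The next question was how the transporters changed between 24h and 72h within an exposure, where lanes were shared. In unexposed nematodes *ent-4* fell from 15.2, 19.5 and 15.6 to 5.99, 4.804 and 4.84 CPM, 3.21-fold (log2 fold change -1.68, SE 0.21, adjusted p = 1.48e-06, edgeR), and held without any single library. *Ent-7* fell from 35.4, 33.6 and 28.6 to 18.6, 15.2 and 21.2 CPM (log2 fold change -0.83, SE 0.20, adjusted p = 0.00258), and lost the call without replicate 1 or 2 of either time (range -0.92 to -0.70) and with scaling by library totals. These 2 of 7 members stood beside 17.7% of all genes called. *Ent-1*, *ent-5* and *ent-6* were not called between the times, with log2 fold changes of 0.07 (interval -0.29 to 0.43), 0.20 (-0.75 to 1.15) and 0.14 (-0.40 to 0.67). Of the marker genes, 2 of 8 intestine, 1 of 4 muscle and 2 of 6 early embryo genes were called lower at 72h, and 2 other early embryo genes and 1 each of the oocyte, moulting and neuron lists higher, and their part was not tested.

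With DMSO 5 of 7 members changed between the times, where 33.1% of all genes were called. *Ent-1* rose 1.87-fold (log2 fold change 0.90, SE 0.18, adjusted p = 1.84e-04, edgeR) and *ent-5* 3.29-fold (log2 fold change 1.72, SE 0.47, adjusted p = 0.00445). *Ent-2* fell 2.45-fold (log2 fold change -1.29, SE 0.17, adjusted p = 8.68e-07), *ent-4* 1.902-fold (log2 fold change -0.93, SE 0.21, adjusted p = 8.11e-04) and *ent-7* 2.71-fold (log2 fold change -1.44, SE 0.20, adjusted p = 3.58e-06). Of these, *ent-5* lost its call without replicate 1 or 2 of DMSO at 24h or replicate 1 at 72h (range 1.57 to 2.01, adjusted p = 0.00597 to 0.0322), and the other 4 kept theirs without any single library. *Ent-6* was just over the threshold (log2 fold change 0.84, SE 0.26, adjusted p = 0.0109) and was called by DESeq2, among 6112 genes in all. Over the same libraries 5 of 11 oocyte and germline genes rose and all 8 intestine, 4 of 7 moulting and 3 of 4 muscle genes fell. Of 6 early embryo genes 2 rose and 2 fell, and 1 of 5 neuron genes fell. Their part was not tested.

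With FLT the same directions were found for 4 called members, where 36.1% of all genes were called. *Ent-1* rose from 74.3, 89.8 and 65.95 to 137, 168 and 202 CPM (log2 fold change 1.14, SE 0.18, adjusted p = 1.87e-05, edgeR) and *ent-5* from 5.89, 5.04 and 3.33 to 13.03, 17.6 and 19.2 CPM (log2 fold change 1.80, SE 0.50, adjusted p = 0.00404). *Ent-4* fell (log2 fold change -1.11, SE 0.21, adjusted p = 1.39e-04) and so did *ent-7*, from 17.5, 30.3 and 30.9 to 15.8, 14.4 and 10.4 CPM (log2 fold change -0.96, SE 0.20, adjusted p = 4.78e-04). *Ent-2* did not follow, with 53.5, 59.99 and 79.1 CPM at 24h and 66.3, 54.7 and 55.2 CPM at 72h, which overlapped (-0.13, interval -0.46 to 0.21). The call of *ent-5* was lost without replicate 2 or 3 of either time (range 1.68 to 1.98, adjusted p = 0.00507 to 0.0256), while those of *ent-1*, *ent-4* and *ent-7* held without any single library. All 11 oocyte and germline genes rose between these times and 7 of 8 intestine and 3 of 7 moulting genes fell. Also called were 2 of 6 early embryo, 2 of 5 sperm and 1 of 5 neuron genes, lower, and 1 of 4 muscle and 1 of 5 sperm genes, higher. Their part was not tested.

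With d4T *ent-2* fell from 86.3, 65.7 and 87.8 to 35.3, 41.3 and 33.8 CPM (log2 fold change -1.12, SE 0.16, adjusted p = 9.28e-06, edgeR), *ent-4* fell from 20.7, 26.3 and 20.8 to 5.17, 7.73 and 5.52 CPM (log2 fold change -1.88, SE 0.21, adjusted p = 2.77e-07) and *ent-6* rose to 163, 166 and 181 CPM (log2 fold change 1.00, SE 0.26, adjusted p = 0.00422). These were 3 of 7, where 23.3% of all genes were called, and none was called in a fit of these groups alone, which called 3 genes in all. Replicate 2 at 24h again set the rise of *ent-6*, which was 1.73 without that library and was lost without any 1 of the other libraries (range 0.70 to 1.73). Without replicate 2 at 24h *ent-5* also rose (2.51, adjusted p = 6.57e-08, edgeR) and *ent-3* fell (-3.26, adjusted p = 2.19e-04). These values rest on replicates 1 and 3 at 24h, and replicate 1 held 4.99% of its counts on rRNA genes. How many genes that fit called in all is not given here. The falls of *ent-2* and *ent-4* held without any single library. All 8 intestine genes (47586 to 123547 CPM in sum at 24h and 14307 to 19133 CPM at 72h), 3 of 4 muscle, 2 of 5 sperm, 1 of 7 moulting and 1 of 5 neuron genes also fell and 3 of 6 early embryo genes rose, and their part was not tested.

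With AZT 1 of 7 members was called between the times in the fit of all groups, where 50.7% of all genes were called. Library totals gave 2, DESeq2 3 and a fit of these groups alone 4 called members. *Ent-1* fell from 169.7, 172 and 131 to 95.2, 86.8 and 92.8 CPM (log2 fold change -0.78, SE 0.18, adjusted p = 6.23e-04, edgeR), without overlap and in every fit that left out a library, but not with scaling by library totals. *Ent-5* (-1.35, adjusted p = 0.0149) and *ent-6* (-0.73, adjusted p = 0.0173) were lower at 72h without overlap, and DESeq2 called both. *Ent-4*, which fell in each of the other 4 exposures, had 19.1, 17.6 and 12.8 CPM at 24h and 21.95, 16.5 and 20.9 CPM at 72h (0.27, interval -0.15 to 0.69). *Ent-7* likewise overlapped between the times (0.27, interval -0.14 to 0.68), and *ent-2* was not called (0.36, adjusted p = 0.05601). With library totals *ent-2* (0.75, adjusted p = 8.50e-04) and *ent-4* (0.66, adjusted p = 0.00946) were called higher at 72h. All 7 moulting genes tested rose between these times (47.9 to 70.1 to 279.7 to 361 CPM in sum), 3 of 5 neuron, 2 of 6 early embryo, 2 of 5 sperm and 1 of 4 muscle genes did so too, and 5 of 11 oocyte and germline genes and 1 of 5 sperm genes fell (6685 to 8402 to 2786 to 3394 CPM for the oocyte list). Their part was not tested.

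**Figure D4:**
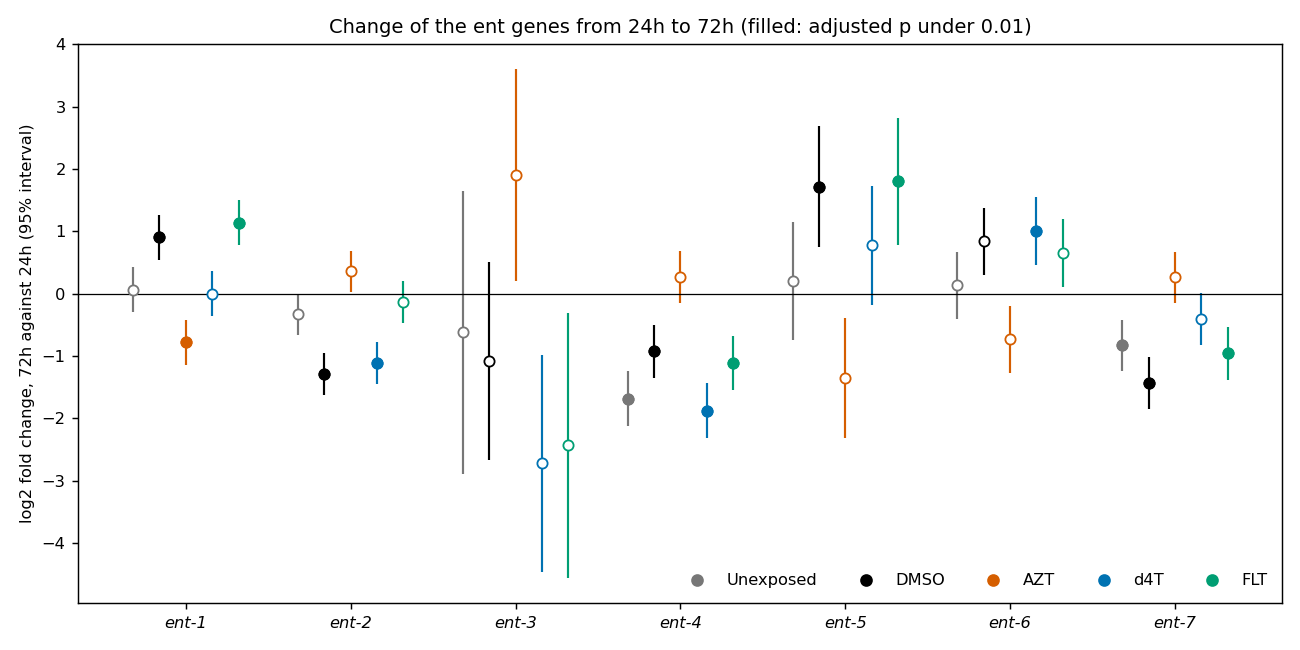
Log2 fold change of each ent gene from 24h to 72h within each exposure, with 95% intervals from the fit and filled points for an adjusted p under 0.01. *Ent-4* has filled points below 0 in unexposed nematodes, DMSO, d4T and FLT but not AZT, and *ent-1* has filled points above 0 with DMSO and FLT and below 0 with AZT.

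The analogues were also compared with each other at the matched dose of 100μM and the matched time, in 6 pairs with p-values adjusted over all genes within a pair. At 24h AZT and FLT differed in *ent-1*, 2.06-fold higher with AZT (log2 fold change 1.04, SE 0.18, adjusted p = 7.31e-05, edgeR), and in *ent-5*, 5.91-fold higher with AZT (log2 fold change 2.56, SE 0.50, adjusted p = 2.34e-04). These were 2 of 7 members where 40.5% of all genes were called, and both held without any single library. AZT and d4T differed in *ent-2*, lower with AZT (log2 fold change -0.57, SE 0.16, adjusted p = 0.00707), and *ent-6*, higher with AZT (log2 fold change 0.87, SE 0.26, adjusted p = 0.00973), 2 of 7 where 29.5% of all genes were called. The first was kept only without replicate 2 of d4T (range -0.64 to -0.44) and so was the second (range 0.59 to 1.63), while *ent-6* overlapped between the groups through that library. Without it AZT was also higher than d4T in *ent-1* (0.62, adjusted p = 8.63e-04, edgeR) and *ent-5* (2.90, 7.49-fold, adjusted p = 2.31e-08) and lower in *ent-3* (-2.36, adjusted p = 0.00336), in a fit that called 10131 genes in all. D4T and FLT differed in *ent-1* (log2 fold change 0.75, SE 0.18, adjusted p = 0.00571), where 5.83% of all genes were called, and this was lost without replicate 2 of d4T (0.44, adjusted p = 0.02997) and without replicate 1 or 3 of FLT (adjusted p = 0.0207 and 0.0467). It was the only member called in that pair, but without replicate 2 of d4T *ent-6* was called lower with d4T (-0.90, adjusted p = 4.81e-04). For *ent-4* no pair was called at 24h, with intervals of -0.88 to -0.03 for AZT against d4T, -1.01 to -0.17 for AZT against FLT and -0.55 to 0.29 for d4T against FLT. With library totals *ent-4* was called lower with AZT than with FLT (-0.85, adjusted p = 0.00169). The markers that differed most often at 24h were the oocyte and germline genes, with 11 of 11 called higher with AZT than FLT, and the intestine and moulting genes, with 7 of 8 and 6 of 7 called lower with AZT than d4T, and their part was not tested.

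At 72h AZT and d4T differed in *ent-2* (log2 fold change 0.90, SE 0.16, adjusted p = 4.17e-04, edgeR) and *ent-4* (log2 fold change 1.69, SE 0.21, adjusted p = 6.16e-06), both higher with AZT and both held without any single library, where 12% of all genes were called. Levels of *ent-4* were 3.22-fold apart, 21.95, 16.5 and 20.9 CPM with AZT and 5.17, 7.73 and 5.52 CPM with d4T. AZT and FLT differed in 4 of 7 members, where 40.5% of all genes were called. *Ent-1* was lower with AZT (log2 fold change -0.88, SE 0.18, adjusted p = 2.59e-04) and held without any single library. *Ent-4* (log2 fold change 0.79, SE 0.21, adjusted p = 0.00273) and *ent-7* (log2 fold change 0.73, SE 0.20, adjusted p = 0.00395) were higher with AZT, each lost without some libraries (adjusted p up to 0.0249 and 0.0482). For *ent-4* these were replicates 1 and 3 of AZT and 2 and 3 of FLT, and for *ent-7* replicates 1 and 2 of AZT and 2 and 3 of FLT. *Ent-3* was higher with AZT (log2 fold change 3.18, SE 0.98, adjusted p = 0.00845) on 33, 18 and 16 counts against 1, 0 and 3, and its call was lost without any 1 of the 6 libraries and with RLE scaling, as was that of *ent-7* with RLE scaling.

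D4T and FLT at 72h differed in *ent-2* (log2 fold change -0.67, SE 0.16, adjusted p = 0.00401, edgeR) and *ent-4* (log2 fold change -0.90, SE 0.21, adjusted p = 0.00317), both lower with d4T, where 11.2% of all genes were called. Each of these calls was lost without replicate 1 or 3 of d4T or replicate 1 of FLT (adjusted p up to 0.0273 for *ent-2* and 0.0276 for *ent-4*) and with scaling by library totals. *Ent-2* overlapped between AZT and FLT at 72h (0.23, interval -0.11 to 0.56), so that d4T, with 35.3, 41.3 and 33.8 CPM, was the analogue in which *ent-2* remained near the 35.04, 30.9 and 34.2 CPM of DMSO. *Ent-6* was not called between any of the 3 at 72h, with intervals of -1.41 to -0.33, -1.22 to -0.14 and -0.35 to 0.73, of which only the last included 0. Among the markers called at 72h, 7 of 8 intestine genes were higher with AZT than d4T and 6 of 8 higher than with FLT. With AZT 5 of 7 moulting genes were higher and 4 of 11 oocyte and germline genes lower than with FLT. Of 6 early embryo genes 3 were higher with AZT than with FLT and 3 were higher with d4T than with FLT. With d4T 2 of 11 oocyte and germline genes were lower than with FLT. Their part was not tested.

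The members fell into patterns across the 30 libraries, described here by Pearson correlations of log2 CPM that share libraries, scaling and depth. *Ent-5* and *ent-6* had r = 0.83 over the 30 libraries and 0.91 after the group means were taken off, and *ent-1* and *ent-5* had 0.82 and 0.69. *Ent-2* ran against *ent-6* (-0.82 and -0.59). *Ent-2* and *ent-4* had 0.73 over the 30 libraries and -0.09 within groups, so that their likeness lay between groups. *Ent-7* ran against *ent-1* (-0.66 and -0.49). Without replicate 2 of d4T at 24h the values within groups were 0.67 for *ent-5* and *ent-6*, 0.36 for *ent-1* and *ent-5*, -0.52 for *ent-2* and *ent-6*, 0.0155 for *ent-2* and *ent-4* and -0.38 for *ent-1* and *ent-7*, whereas the values over the other 29 libraries were 0.83, 0.81, -0.84, 0.72 and -0.66.

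Beside the summed level of the 11 oocyte and germline genes, r over the 30 libraries, with the value within groups in parentheses, was 0.91 (0.79) for *ent-1*, 0.90 (0.93) for *ent-5* and 0.71 (0.85) for *ent-6*. It was -0.54 (-0.68) for *ent-2*, -0.54 (-0.60) for *ent-3*, -0.65 (-0.67) for *ent-7* and -0.52 (0.21) for *ent-4*. Beside the 8 intestine genes it was 0.85 (0.72) for *ent-2*, 0.74 (0.46) for *ent-7* and -0.72 (-0.78) for *ent-5*. The moulting genes ran against *ent-5* (-0.83 (-0.89)) and *ent-6* (-0.88 (-0.88)). *Ent-1*, *ent-5* and *ent-6* thus were high in libraries rich in oocyte and germline transcripts, and *ent-2* and *ent-7* in libraries rich in intestine transcripts, though not of the intestine alone. *Ent-2* also ran with the moulting genes (0.76 (0.74)) and the body muscle genes (0.78 (0.43)). *Ent-7* had 0.42 (0.64) beside the moulting genes. *Ent-4* had 0.66 (-0.19) beside the intestine genes and 0.69 (0.21) beside the body muscle genes. Without replicate 2 of d4T at 24h the values within groups beside the oocyte and germline genes were 0.61 for *ent-1*, 0.75 for *ent-5*, 0.49 for *ent-6*, -0.69 for *ent-2*, -0.73 for *ent-7*, 0.18 for *ent-3* and -0.00799 for *ent-4*, so that the sign turned for *ent-3* and *ent-4*. Beside the intestine genes they were 0.66 for *ent-2*, 0.34 for *ent-7*, -0.04 for *ent-4* and -0.61 for *ent-5*. Beside the moulting genes they were 0.77 for *ent-2*, 0.64 for *ent-7*, -0.67 for *ent-5* and -0.64 for *ent-6*, and beside the body muscle genes 0.39 for *ent-2* and 0.28 for *ent-4*. These are descriptions over libraries that differ in exposure and time, and the part of cell makeup was not tested.

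**Figure D5:**
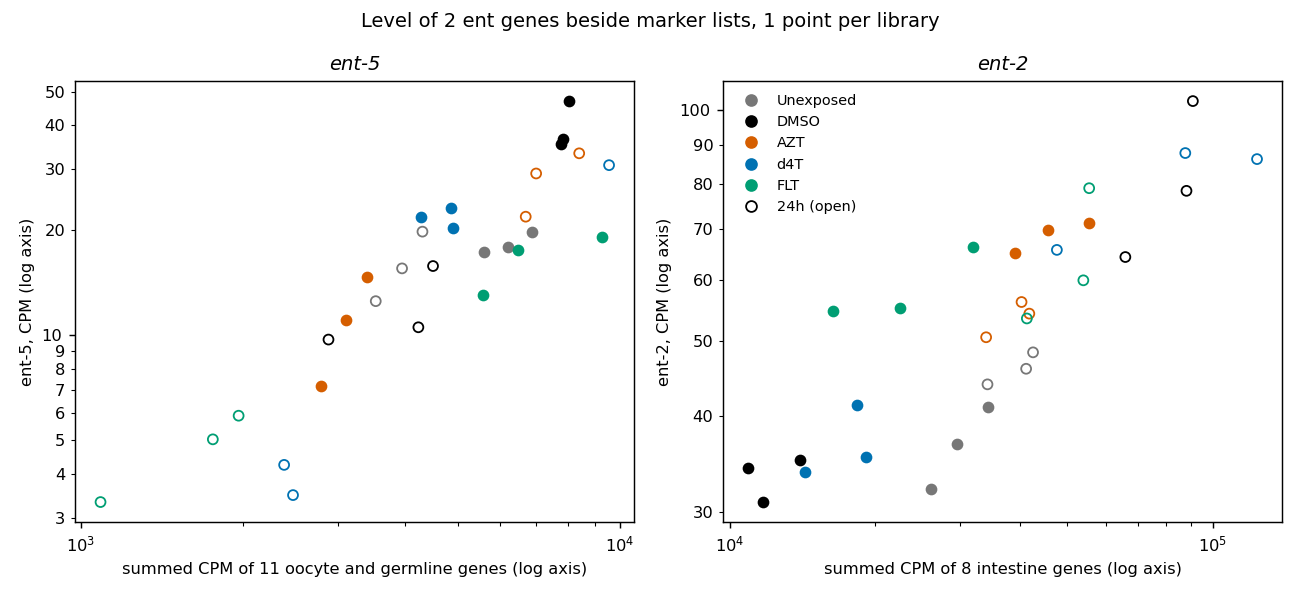
Left, CPM of *ent-5* against the summed CPM of 11 oocyte and germline genes, and right, CPM of *ent-2* against the summed CPM of 8 intestine genes, both on log axes, with 1 point per library, coloured by exposure and open at 24h. Both rise together, with r of 0.90 for *ent-5* and 0.85 for *ent-2* over the 30 libraries.

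For each member the 3 tested genes with the highest r over the 30 libraries were also listed. *Ent-1* was most like *zipt-9* (0.97), *cyk-7* (0.96) and *wee-1.3* (0.96), the last a kinase that holds oocytes in meiotic arrest. *Ent-5* was most like *lin-53* (0.97), a histone-binding protein, *mcm-6* (0.97), a subunit of the replicative helicase, and C08F8.3 (0.97). *Ent-6* was most like *mics-1* (0.98), Y4C6A.3 (0.98) and K04C1.5 (0.97). *Ent-2* was most like ZK470.2 (0.95), *kel-8* (0.94) and *cest-1.2* (0.94). *Ent-4* was most like *cbl-1* (0.93), *dct-18* (0.93) and *gst-38* (0.92), a glutathione S-transferase. *Ent-7* was most like the aspartyl protease gene *asp-13* (0.92), the transcription factor gene *atf-4* (0.89) and the C-type lectin gene *clec-97* (0.89). The nearest genes to *ent-3* were *nsph-2*, E03H12.5 and Y43F8A.2 (0.88 to 0.89), all at similarly few counts.

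Nucleosides taken up by these carriers feed the salvage enzymes, and 20 genes of nucleoside uptake, salvage and deoxynucleotide synthesis were read beside the transporters. Of these 18 were tested, *cdd-2* was at 0 in every library and *dctd-1* could not be matched. With AZT at 72h 3 rose and 7 fell, 10 of 18 where 48.9% of all genes were called. The concentrative carrier gene *slc-28.1* rose (log2 fold change 1.79, SE 0.29, adjusted p = 1.64e-05, edgeR), as *ent-2* did, and so did *pnp-1*, a purine nucleoside phosphorylase (log2 fold change 1.21, SE 0.20, adjusted p = 1.88e-05). The 2 with the smallest adjusted p among those that fell were *upp-1*, a uridine phosphorylase (log2 fold change -1.33, SE 0.15, adjusted p = 1.82e-07), and *ndk-1*, a nucleoside diphosphate kinase (log2 fold change -1.51, SE 0.18, adjusted p = 6.48e-07). *Slc-28.2* was not called in any comparison with DMSO (-0.79 with AZT, -0.52 with d4T and -0.42 with FLT at 24h, and 0.68, 0.78 and 0.16 at 72h).

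In the other comparisons with DMSO 1 to 4 of the 18 salvage genes were called. *Pnp-1* fell with AZT (-1.54, adjusted p = 4.30e-05, edgeR) and d4T at 24h (-0.84, adjusted p = 0.00473), each time as the only call of 18, where 10.2% and 6.31% of all genes were called. With FLT at 24h *hprt-1*, a purine phosphoribosyltransferase, was higher (0.79, adjusted p = 0.00495, edgeR) and 3 genes were lower, where 15.1% of all genes were called. Of the 3, *adk-1*, adenosine kinase (-0.59, adjusted p = 4.43e-04), and *umps-1*, the last enzyme of pyrimidine synthesis (-1.21, adjusted p = 0.001296), had the smallest adjusted p. At 72h 3 were lower with d4T, where 11.7% of all genes were called, led by *ndk-1* (-1.37, adjusted p = 8.96e-06, edgeR) and *upp-1* (-0.97, adjusted p = 3.33e-05). With FLT *ndk-1* alone was lower (-0.98, adjusted p = 5.10e-04), where 8.06% of all genes were called. *Slc-28.1* was not called with AZT (-0.57), d4T (-0.02) or FLT (0.35) at 24h, nor with d4T (0.91, adjusted p = 0.0228) or FLT (-0.30) at 72h.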

How the data were processed

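Whole-worm RNA of 30 libraries (10 groups of 3) was sequenced. Per the submitters' processing notes and the study's methods, the authors trimmed the reads with Trimmomatic 0.32, aligned them to WBcel235 with TopHat 2.0.8 and Bowtie 2.1.0, counted them per gene with HTSeq and deposited raw counts. Entries for no gene held 10.5 to 26.5% of each library (median 14.5%) and were left out. Samples were grouped by the deposited labels.

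All libraries were fitted together in edgeR 4.0.16 (R 4.3.3): filterByExpr (minimum count 10, minimum total 15), TMM scaling, glmQLFit (robust) and glmQLFTest, with 20 residual degrees of freedom and Benjamini-Hochberg adjustment over the 16048 genes tested. The threshold of 0.01 follows the study. Total counts of 11.3 to 30.6M per library leave *ent-3* (at most 33 counts) the least precise, and limits from counts of 0 cover counting error only. The calculations were tested on simulated data. Alternatives were RLE scaling, library totals, no filter, rRNA genes left out, a replicate block, DESeq2 1.42.0, a fit of only the compared groups, comparison with unexposed nematodes, and leaving out each replicate.

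Replicate numbers were not used as pairs, since residuals with equal numbers correlated above 0.1 throughout in 0 of 19 comparisons. Single pairs did exceed it, with -0.41, 0.32 and 0.55 in replicates 1 to 3 of d4T against FLT at 24h. A pairing of only some libraries was not tested. The members, marker lists and salvage list were chosen with earlier results of these data known. Named were all 7 members, *slc-28.1* and *slc-28.2*, up to 2 called salvage genes in each direction per comparison with DMSO, and the 3 genes most like each member. Correlations used log2 CPM with a prior count of 2 between genes, and offsets of 0.1 CPM for members and 1 CPM for marker sums. Gene lengths came from the Ensembl annotation of WBcel235. Promoter and protein sequences were not used here.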

Additional observations from a re-analysis of the deposited data

Results flagged for a closer look

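For 6 of the 7 members the effect of AZT against DMSO at 72h differed from that at 24h by a test of the difference itself in edgeR. The differences in log2 fold change, 72h less 24h, were -1.69 for *ent-1* (adjusted p = 5.25e-06), 1.65 for *ent-2* (adjusted p = 2.99e-06), 1.19 for *ent-4* (adjusted p = 0.00103), -3.07 for *ent-5* (adjusted p = 3.34e-04), -1.57 for *ent-6* (adjusted p = 7.31e-04) and 1.70 for *ent-7* (adjusted p = 2.05e-05). For *ent-2* the effect of FLT also differed between the times, by 1.16 (adjusted p = 8.76e-04), and so did that of DMSO against unexposed nematodes, by -0.96 (adjusted p = 0.00262). The AZT, d4T and FLT differences use the same DMSO libraries and take in the change within DMSO. From 24h to 72h *ent-2*, *ent-4*, *ent-5* and *ent-7* were called within DMSO but not within AZT, *ent-1* within both and *ent-6* within neither. Single libraries were not tested for lying outside their group, since each group holds 3, and replicate 2 of d4T at 24h stood apart by its correlations with other libraries.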

How the results depend on the processing

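Of 161 gene comparisons 49 were called, 28 of these in every fit without 1 library, 27 under every other setting and 23 in both, while 43 others were called under some setting. Of all genes the share called ran from 5.83% (d4T against FLT at 24h) to 53% (difference between both effects of AZT). A share pooled over these comparisons was not counted. Called members against DMSO at 24h numbered 2 with AZT, but 1 with RLE scaling, 1 without a filter, 0 against unexposed nematodes, 4 in the compared groups alone, and 0 to 1 without a library. Of all genes the full fit called 1640 and these first 4 settings 1629, 1540, 113 and 4275. With d4T 0 became 2 in DESeq2, 4 against unexposed nematodes and 0 to 2 without a library. Of all genes 1013 became 1575 and 5173 in the first 2 of these settings, and 0 in the compared groups alone. With FLT 1 became 2 in DESeq2, 2 against unexposed nematodes, 0 in the compared groups alone and 0 to 2 without a library. Of all genes 2428 became 3328, 4725 and 763. At 72h d4T had 1, but 0 with library totals, 0 against unexposed nematodes, 2 in the compared groups alone and 0 to 1 without a library. Of all genes 1875 became 2875, 33 and 6538. FLT had 1, but 2 with library totals, 2 in DESeq2, 2 against unexposed nematodes, 3 in the compared groups alone and 0 to 1 without a library. Of all genes 1294 became 1362, 1974, 2002 and 2465. AZT kept 4 to 6 calls under all settings. Of all genes 7845 became 5099 against unexposed nematodes and 9388 in the compared groups alone. DMSO against unexposed nematodes had 2 (24h) and 3 (72h) in the compared groups alone, where 4241 and 5973 of all genes were called, and 0 at 72h without any library. From 24h to 72h unexposed nematodes had 1 with library totals and 1 to 2 without a library. AZT had 2 with library totals, 3 in DESeq2 and 4 in the compared groups alone, where 8132 of all genes became 7719, 8857 and 9640, and d4T 0 in those alone (3739 of all genes became 3) and 2 to 5 without a library. Between analogues there were 5 calls at 24h (2 in the compared groups alone, 3 to 8 without a library) and 8 at 72h (5 to 8). Of all genes at 24h, in the compared groups alone, 4731 became 0 for AZT against d4T. For AZT against FLT 6499 became 6256, and for d4T against FLT 936 became 0. The ranges without a library are given without counts over all genes. The sign turned for *ent-2* against unexposed nematodes at 24h, to 0.22 with AZT and 0.79 with d4T, where the control itself differs, and for *ent-5* with d4T at 24h (-1.66 without replicate 2, -1.66 to 0.52 over the libraries). Other causes were not tested.

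With the replicate block, *ent-2* with AZT at 24h and *ent-6* with AZT at 72h lost their calls, leaving 1 and 5 called members, and no other call changed. Residuals with equal replicate numbers had r of -0.41 to 0.55 and were above 0.1 throughout in no comparison. RLE scaling shifted the median of all genes by -0.12 and library totals by 0.31 for AZT at 72h against DMSO, and neither turned the sign of a called member. *Ent-3*, with 0 to 33 counts, is limited by depth. In an alternative chosen after seeing the data, leaving out replicate 2 of d4T at 24h turned the sign of 3 correlations within groups, *ent-3* (-0.60 to 0.18) and *ent-4* (0.21 to -0.00799) beside the oocyte and germline genes, and *ent-2* with *ent-4* (-0.09 to 0.0155).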
